A study of Arabidopsis thaliana with 6 samples.

Results

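The 42 genes described here encode the light-harvesting and photosystem subunits of Arabidopsis thaliana chloroplasts that are made from nuclear genes. They were taken by gene identifier from 33602 genes in the deposited table, and all 42 passed the filter on low counts. No measured value entered the rule, but the set was chosen with earlier results of these data known. The set holds 6 antenna genes of photosystem I (LHCA1 to LHCA6), 12 genes of the photosystem I core complex (PSA genes), 14 antenna genes of photosystem II (LHCB genes), 9 genes of the photosystem II core and its oxygen-evolving complex (PSB genes) and PSBS. Leaves of plants 25 days old, grown in long days, gave 3 messenger RNA libraries of wild type and 3 of the pub2pub4 double mutant, which carries lesions in the U-box ubiquitin ligase genes PUB2 and PUB4. All 6 libraries were labelled mock, with no description of that treatment in the labels. The series concerns the function of PUB2 and PUB4 in plant immunity. The labels also do not state the alleles, the ecotype, or whether a library came from 1 plant or a pool. P-values therefore measure the spread between these libraries, which may be technical.

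Photosystem II splits water and photosystem I passes the electrons on to ferredoxin, and each sits in the thylakoid membrane with a ring of chlorophyll-binding antenna proteins. LHCB1, LHCB2 and LHCB3 proteins form the trimers of the major antenna, LHCII. LHCB4, LHCB5 and LHCB6 are monomeric linkers between the trimers and the photosystem II core, and LHCA proteins form the antenna belt of photosystem I. The reaction-centre proteins themselves are encoded in the chloroplast, while the antenna and the small outer subunits are made in the cytosol and imported. Nuclear antenna genes are known for strong responses to light, to the circadian clock and to signals from the chloroplast.

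Each library held between 20506882 and 20732799 expected counts, so depth differed little. PUB2 was at 9.40, 10.3 and 7.48 CPM (counts scaled to a common library size and for library composition) in wild type and at 0.382, 0.543 and 0.588 CPM in pub2pub4 (log2 fold change -4.15 ± 0.22 SE, adjusted p = 1.84e-04). PUB4 was at 20.4, 23.6 and 19.0 CPM against 2.39, 3.45 and 3.82 CPM (-2.71 ± 0.17, adjusted p = 5.19e-04). Both targeted genes fell, and were low in all 3 libraries labelled pub2pub4. Leaf mesophyll markers (RBCS genes, RCA, CA1) summed to between 41506 and 43964 CPM in wild type and between 38301 and 45191 CPM in the mutant, so the labelled tissue carried its defining genes. None of the markers of mesophyll, epidermis, guard cells, vasculature, trichomes, root, flower or seed passed the edgeR test. By unadjusted p under 0.05, 2 of 4 trichome, 1 of 5 epidermis and 1 of 5 guard cell markers were lower, against 9.41% of all genes. DESeq2 called the guard cell gene KAT1 lower, against 3.72% of all genes. Epidermis markers summed to 987 to 1076 CPM in wild type and 1055 to 1070 CPM in the mutant, guard cell markers to 62.0 to 70.8 and 57.7 to 65.8 CPM, and vascular markers to 230 to 259 and 217 to 234 CPM. The trichome sums did not overlap, at 19.7 to 23.7 CPM against 14.8 to 18.01 CPM. Flower sums, from markers each under 1 CPM, did not overlap either, at 1.62 to 3.37 against 0.735 to 1.29 CPM. Root markers (26.3 to 40.8 and 37.5 to 41.2 CPM) and seed markers (0.0479 to 0.0964 and 0 to 0.247 CPM, 2 of 4 at 0 in all libraries) overlapped between the groups. Nearly all of the root sum was SCR, at 25.6 to 39.7 and 37.2 to 40.9 CPM. No other root marker was above 1.03 CPM in any library. The part of trichome or flower RNA in the results below was not tested. In whole leaf RNA, fewer cells of a type and less RNA per cell cannot be told apart.

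Together the 42 genes took 9.47%, 9.47% and 9.84% of all counts in the wild-type libraries and 7.68%, 8.14% and 9.20% in pub2pub4 1, 2 and 3. Of the mutant libraries, pub2pub4 3 lay nearest to wild type and pub2pub4 1 farthest from it. The median member was at -0.28, -0.16 and -0.03 log2 units from the wild-type mean in pub2pub4 1, 2 and 3. Within the photosystem II antenna the same medians were -0.65, -0.55 and -0.06. Because pub2pub4 3 stood apart from the other mutant libraries for these genes, results below are given with and without it where that changes the call. That choice was made from the values of these same genes. Leaving out the mutant library nearest to wild type tends to widen their differences and lower their spread. Fits without pub2pub4 3 are therefore a description and no separate support. What sets pub2pub4 3 apart was not tested.

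Only 1 of the 42 genes passed the test across all genes (edgeR's quasi-likelihood test with Benjamini-Hochberg adjustment over 19019 genes, threshold 0.05). It was the LHCII gene LHCB1.5, which fell in pub2pub4. Among all genes tested, 1.97% were called lower and 2.49% higher, so a count of 1 lower and 0 higher in 42 is near the background and is not a result about the set. By unadjusted p under 0.05, 16 members were lower, against 9.41% of all genes, and 2 were higher, against 10.3%. DESeq2 called 5 of the 42 lower (LHCB1.5, PSAD2, LHCB4.2, PSAD1 and LHCB2.1), against 3.72% of all genes, and none higher. The fitted log2 fold changes of the members ran from -0.84 to 0.39 with a median of -0.18, and 33 of 42 were below 0. Over all genes tested the median was 0.01 and 48.5% were below 0. In 17 members every mutant library lay below every wild-type library, against 12.7% of all genes. In 3 members (LHCB4.3, PSBS and PSBO2) every mutant library lay above every wild-type library, against 13.4% of all genes. For PSBO2 the gap was very small, from 1165.69 CPM in wild type 3 to 1165.84 CPM in pub2pub4 1.

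Leaving out pub2pub4 3 changed the count of calls most. Without it, 15 members were called lower, against 2.36% of 19226 genes, and none was called higher. They were the 5 LHCB1 genes, the 3 LHCB2 genes, LHCB3, LHCB4.2, LHCA1, LHCA3, LHCA4, PSAD2 and PSAH2, of which 13 are antenna genes and 2 encode core subunits. These 15 calls rest on pub2pub4 1 and 2 alone, and each of the other leave-one-out fits called 0 members lower. The reverse exclusion also moved a call: without pub2pub4 1, PSBS was called higher (0.33 ± 0.07, adjusted p = 0.0471), against 1.73% of all genes called higher in that fit.

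**Figure D1:**
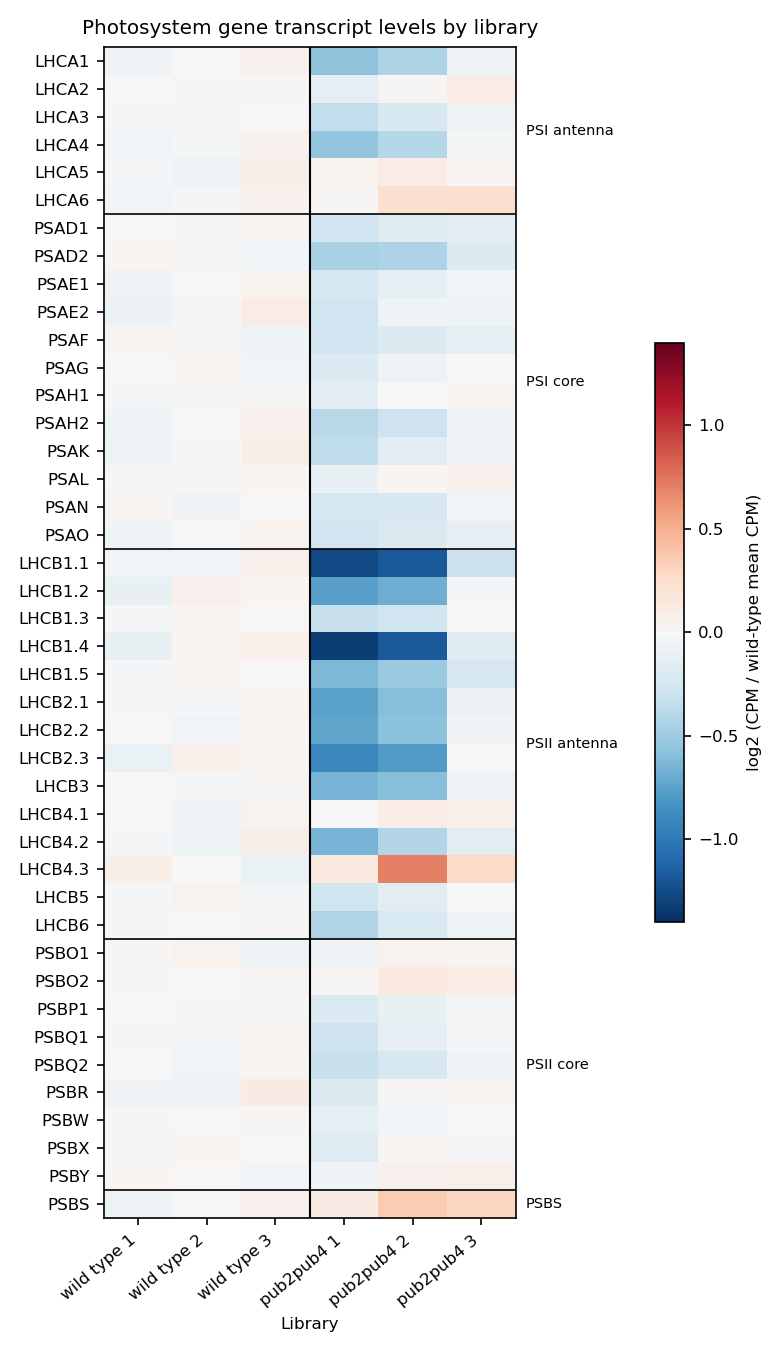
Level of each of the 42 genes in each of the 6 libraries, as log2 of its scaled CPM over the gene's wild-type mean, with genes grouped by photosystem and by antenna or core. The lowest values are those of LHCB1.1 and LHCB1.4 in pub2pub4 1 and 2, and in the photosystem II antenna rows the median of pub2pub4 3 is -0.06 against -0.65 and -0.55.

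**Figure D2:**
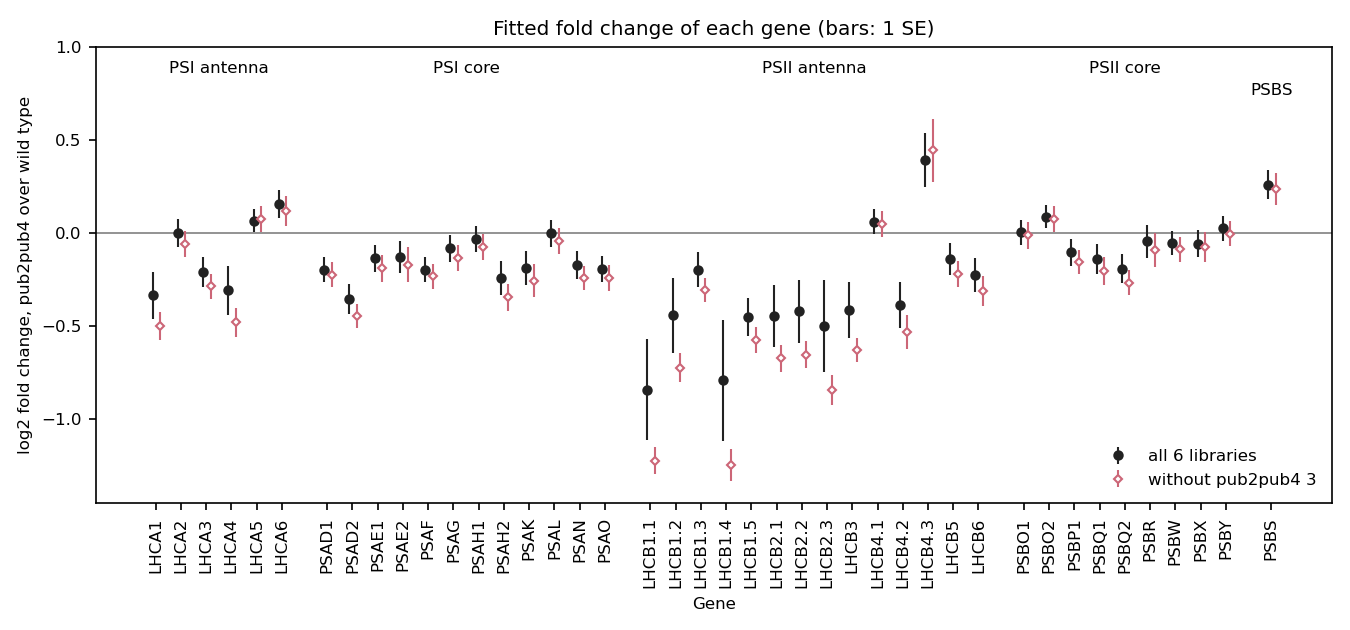
Fitted log2 fold change, pub2pub4 minus wild type, of each of the 42 genes with its standard error, from all 6 libraries (filled circles) and without pub2pub4 3 (open diamonds), grouped as in the plot of levels by library. With all libraries, values run from -0.84 for LHCB1.1 to 0.39 for LHCB4.3, and LHCB1.5 alone passed the test with all 6 libraries.

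LHCB1 is the most abundant antenna protein family of land plants and is encoded by 5 closely similar genes in Arabidopsis. LHCB1.1, LHCB1.2 and LHCB1.3 lie side by side at chr1:10472280-10479114, and LHCB1.4 and LHCB1.5 are neighbours at chr2:14522524-14525918 (positions from the RefSeq annotation of the TAIR10.1 assembly, matched by locus identifier). In the deposited table AT1G29920 and AT1G29910 carry the same symbol, LHCB1.2. RefSeq describes AT1G29920 as LHCB1.1, and that name is used for it here. LHCB1.4 and LHCB1.5 are listed in the table as LHB1B1 and LHB1B2. The first 60 coding bases of the 5 genes, read from the TAIR10.1 genome, show how alike they are; capitals mark the 16 positions at which the 5 do not all have the same base.
LHCB1.1: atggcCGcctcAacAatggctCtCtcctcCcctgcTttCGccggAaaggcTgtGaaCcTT
LHCB1.2: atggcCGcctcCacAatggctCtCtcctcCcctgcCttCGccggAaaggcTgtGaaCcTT
LHCB1.3: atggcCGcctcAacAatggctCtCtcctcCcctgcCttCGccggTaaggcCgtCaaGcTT
LHCB1.4: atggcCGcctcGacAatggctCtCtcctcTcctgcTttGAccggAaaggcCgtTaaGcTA
LHCB1.5: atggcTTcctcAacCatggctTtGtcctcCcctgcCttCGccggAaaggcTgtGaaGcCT
Over the whole coding sequence, LHCB1.1 and LHCB1.2 were 95.6% identical, LHCB1.1 and LHCB1.3 96.1%, LHCB1.2 and LHCB1.3 96.4%, and LHCB1.4 and LHCB1.5 91.4%. Between the clusters on chromosomes 1 and 2, identity was 86.8% to 90.4%. Of the 42 genes, 8 had a deposited count that was not whole in at least 1 library, the 5 LHCB1 genes among them. How reads shared between similar copies were split is not stated, so the values of single LHCB1 genes are uncertain.

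LHCB1.5 (AT2G34420) fell by 0.45 log2 units in pub2pub4 (± 0.10 SE, adjusted p = 0.0485, edgeR's quasi-likelihood test). It was at 8152, 8478 and 8345 CPM in wild type (mean 8325 ± 164 SD, n = 3) and at 5403, 5801 and 7047 CPM in pub2pub4 (6084 ± 858 SD, n = 3). All 3 mutant libraries lay below all 3 wild-type libraries, and pub2pub4 3 was the nearest to them. The call is close to the threshold: it was lost in 5 of 6 fits that leave out 1 library (adjusted p = 0.0738 to 0.182) and was kept without pub2pub4 3 (-0.58 ± 0.07, adjusted p = 0.00518). In limma-voom its adjusted p was 0.0527.

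The largest fitted difference of the set belonged to LHCB1.1, which did not pass the test (-0.84 ± 0.27, adjusted p = 0.166). Its levels were 937, 937 and 1012 CPM in wild type and 402, 425 and 783 CPM in pub2pub4. The groups did not overlap, but pub2pub4 3 was much nearer to wild type than the other mutant libraries. LHCB1.4 had 1309, 1441 and 1480 CPM in wild type and 568, 623 and 1251 CPM in pub2pub4 (-0.79 ± 0.33, adjusted p = 0.267). Again no library overlapped and pub2pub4 3 was the high one. Without it, LHCB1.1 was at -1.22 ± 0.07 (adjusted p = 5.49e-04) and LHCB1.4 at -1.25 ± 0.09 (adjusted p = 9.21e-04).

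The other LHCB1 genes had smaller differences. LHCB1.2 was at 2319, 2605 and 2528 CPM in wild type and at 1471, 1543 and 2465 CPM in pub2pub4 (-0.44 ± 0.20, adjusted p = 0.293). LHCB1.3 was at 10261, 10640 and 10394 CPM against 8327, 8589 and 10363 CPM (-0.20 ± 0.09, adjusted p = 0.294). In both, pub2pub4 3 lay within the wild-type range while pub2pub4 1 and 2 lay below it. Because reads may be shared, the 5 genes were also summed, a choice made after the data were seen. The sum was 22978, 24101 and 23759 CPM in wild type and 16171, 16981 and 21909 CPM in pub2pub4 (-0.37 ± 0.12, adjusted p = 0.120). The summed family did not pass the test although its groups did not overlap.

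LHCB1.3 and LHCB1.5 were also the most abundant of the 42 genes per length, at 13374 ± 146 and 10663 ± 128 TPM (counts per length, scaled to a common total and recomputed from the counts and the deposited length; mean ± SD, n = 3) in wild type. In pub2pub4 the same means were 11622 ± 1318 and 7766 ± 1014 TPM. The next were PSBR, at 6199 ± 437 TPM in wild type, and LHCA2, at 4881 ± 77.1 TPM. The difference between LHCA2 and the next gene, LHCA1 at 4756 ± 174 TPM, was within their spread. At the low end were LHCB4.3 (66.7 ± 4.37 TPM), LHCB2.3 (110.3 ± 5.44 TPM), LHCA5 (181 ± 9.61 TPM) and LHCA6 (268 ± 9.15 TPM). The 42 genes summed to 128285 ± 1635 TPM in wild type and 112756 ± 9828 TPM in pub2pub4.

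LHCB2 proteins are, with LHCB1, the LHCII subunits that are phosphorylated when the antenna is shared between the photosystems. The 3 LHCB2 genes, of which LHCB2.3 is listed in the table as LHCB2.4, had fitted log2 fold changes between -0.50 and -0.42, and none passed the test. LHCB2.1 was at 682, 685 and 707 CPM in wild type and at 411, 458 and 654 CPM in pub2pub4 (-0.45 ± 0.17, adjusted p = 0.200). LHCB2.2 also lay lower without overlap, with pub2pub4 3 nearest to wild type, and LHCB2.3 overlapped between the groups. LHCB2.3 overlaps a gene on the opposite strand that was at 29.4 CPM in wild type, beside 77.9 CPM for LHCB2.3 itself, and without a stated strand setting their reads cannot be told apart. Summed, the LHCB2 genes were at 1311, 1308 and 1353 CPM in wild type and 788, 876 and 1269 CPM in pub2pub4 (-0.44 ± 0.17, adjusted p = 0.217).

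LHCB3 (AT5G54270) is the remaining subunit of the LHCII trimers. It was at 2430, 2419 and 2476 CPM in wild type and at 1551, 1614 and 2332 CPM in pub2pub4 (-0.41 ± 0.15, adjusted p = 0.189; without pub2pub4 3, -0.63 ± 0.07, adjusted p = 0.00349). All mutant libraries lay below all wild-type libraries, with pub2pub4 3 nearest.

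The linker protein LHCB4 (CP29) is encoded by 3 genes, and none passed the test. LHCB4.1 (AT5G01530), the most abundant, was at 3620, 3508 and 3752 CPM in wild type and at 3615, 3910 and 3816 CPM in pub2pub4 (0.06 ± 0.07, adjusted p = 0.683). LHCB4.2 (AT3G08940) was at 1366, 1341 and 1479 CPM in wild type and at 888, 1049 and 1263 CPM in pub2pub4 (-0.39 ± 0.12, adjusted p = 0.126). LHCB4.3 (AT2G40100) was at 59.0, 56.0 and 52.1 CPM in wild type and at 61.0, 91.0 and 67.2 CPM in pub2pub4 (0.39 ± 0.15, adjusted p = 0.200). LHCB4.1 overlapped, LHCB4.2 lay lower without overlap and LHCB4.3 lay higher without overlap. The difference between the paralogs was not tested. LHCB4.2 was called lower by DESeq2 (adjusted p = 0.0308) and by edgeR without pub2pub4 3 (-0.53 ± 0.09, adjusted p = 0.0186). The remaining linkers did not pass: LHCB5 (CP26) overlapped (-0.14 ± 0.09) and LHCB6 (CP24) lay lower without overlap (-0.23 ± 0.09, adjusted p = 0.221).

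Of the 6 LHCA genes, which encode the photosystem I antenna, none passed the test and DESeq2 called 0. At an unadjusted p under 0.05, 3 were lower, against 9.41% of all genes. The median log2 fold change of the 6 was -0.10. LHCA1 (AT3G54890) was at 3803, 3919 and 4106 CPM in wild type and at 2667, 2928 and 3782 CPM in pub2pub4 (-0.33 ± 0.13, adjusted p = 0.188). LHCA2 (AT3G61470), which forms a dimer with LHCA3, was at 4042, 3993 and 4074 CPM against 3703, 4078 and 4338 CPM (0.00 ± 0.08, adjusted p = 0.997). LHCA1 lay lower in every mutant library, while the LHCA2 groups overlapped. LHCA4 (AT3G47470), the partner of LHCA1 in a dimer, was at 4204, 4235 and 4510 CPM against 2941, 3266 and 4244 CPM (-0.31 ± 0.13, adjusted p = 0.240). It followed the order of LHCA1, with pub2pub4 3 back in the wild-type range. LHCA3 lay lower without overlap (-0.21 ± 0.08, adjusted p = 0.203), and the low-abundance LHCA5 and LHCA6, which link photosystem I to the NDH complex, were at 0.07 ± 0.06 and 0.16 ± 0.08. Without pub2pub4 3, LHCA1 (-0.50 ± 0.08, adjusted p = 0.0119), LHCA3 and LHCA4 were called lower and LHCA2 was not (adjusted p = 0.692).

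All 12 genes of the photosystem I core complex had fitted log2 fold changes below 0, from -0.35 to -0.00 with a median of -0.18. None passed the edgeR test. By unadjusted p under 0.05, 5 were lower, against 9.41% of all genes, and DESeq2 called 2 lower, against 3.72%. PSAD, on the stromal side, forms the docking site for ferredoxin together with PSAE and PSAC. PSAD2 (AT1G03130) was at 725, 720 and 693 CPM in wild type and at 522, 528 and 622 CPM in pub2pub4 (-0.35 ± 0.08, adjusted p = 0.0508). PSAD1 (AT4G02770), its more abundant paralog, was at 1894, 1885 and 1934 CPM against 1574, 1699 and 1714 CPM (-0.20 ± 0.07, adjusted p = 0.139). Both lay lower in all mutant libraries, and DESeq2 called both lower (adjusted p = 0.00272 and 0.0474).

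PSAF (AT1G31330), which binds plastocyanin on the lumen side, was at 3099, 3070.8 and 2905 CPM in wild type and at 2519, 2641 and 2759 CPM in pub2pub4 (-0.20 ± 0.07, adjusted p = 0.158). PSAO (AT1G08380), which has a role in balancing excitation between the photosystems, was at 1727, 1803 and 1858 CPM against 1483, 1562 and 1660 CPM (-0.20 ± 0.07, adjusted p = 0.169). These also lay lower without overlap, as did PSAH2 (-0.24 ± 0.09, adjusted p = 0.190). The other core genes overlapped between the groups, with PSAL (-0.00 ± 0.07) and PSAH1 (-0.03 ± 0.07) closest to no difference. PSAE1 and PSAE2 (-0.14 ± 0.07 and -0.13 ± 0.09), the peripheral PSAG and PSAK (-0.08 ± 0.07 and -0.19 ± 0.09) and the lumenal PSAN (-0.17 ± 0.08) lay between. PSAL and PSAH lie at the side of photosystem I where LHCII docks.

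The 9 genes of the photosystem II core had a median log2 fold change of -0.05. None passed the edgeR test and DESeq2 called 0. By unadjusted p under 0.05, 1 was lower, against 9.41% of all genes. That count is near the share and is not a result about the class. PSBO proteins hold the manganese cluster of water splitting in place. PSBO1 was at 0.00 ± 0.07 and PSBO2 at 0.09 ± 0.06, with the PSBO2 groups not overlapping. PSBP1 and PSBQ2, the other extrinsic subunits with groups that did not overlap, were lower, at -0.10 ± 0.07 and -0.19 ± 0.08. PSBQ1 overlapped between the groups (-0.14 ± 0.08). PSBR (AT1G79040), the most abundant core gene of photosystem II per length, was at 3214, 3186 and 3603 CPM in wild type and at 2910, 3368 and 3413 CPM in pub2pub4 (-0.05 ± 0.09, adjusted p = 0.828). PSBW, PSBX and PSBY lay between -0.06 and 0.02.

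PSBS (AT1G44575) is the pigment-free sensor of lumen pH that starts the quenching of excess light energy, and it was kept apart from antenna and core. It was at 1285, 1353 and 1402 CPM in wild type and at 1462, 1721 and 1656 CPM in pub2pub4 (0.26 ± 0.08, adjusted p = 0.116). Every mutant library lay above every wild-type library, opposite to most of the antenna, and the difference did not pass the test with all libraries.

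By class, the photosystem II antenna had the lowest median (-0.42, 14 genes), ahead of the photosystem I core (-0.18), the photosystem I antenna (-0.10) and the photosystem II core (-0.05). That lowest median counts the 5 LHCB1 and 3 LHCB2 copies singly, although reads may be shared among the LHCB1 copies. The other photosystem II antenna genes ran from -0.41 (LHCB3) to 0.39 (LHCB4.3). Within the photosystem II antenna, 8 of 14 genes lay lower without overlap and 1 lay higher. In the photosystem I core 5 of 12 genes lay lower without overlap, and in the photosystem I antenna 2 of 6. In the photosystem II core 2 of 9 lay lower and 1, PSBO2, lay higher by a very small gap. Over all genes tested the shares were 12.7% lower and 13.4% higher. The counts of 2 come from classes of 6 and 9 genes, too few to be read as a result about them. The classes' medians were not tested against each other. The mutant libraries kept a common order: pub2pub4 1 was the lowest of the 3 in 41 of 42 genes and pub2pub4 3 the highest in 34. The order 1, 2, 3 from low to high held in 34 of 42 genes, against 20.2% of all genes tested. These 3 libraries are replicates and their numbers have no order of their own. In 15 of 42 genes pub2pub4 3 lay within the wild-type range, against 38.8% of all genes tested.

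Ratios of summed per-length levels set the photosystems and the antenna against each other. The log2 ratio of photosystem I to photosystem II was -0.61, -0.63 and -0.61 in wild type and -0.57, -0.57 and -0.62 in pub2pub4. The groups overlapped, and the difference of their means was 0.03. Leaving LHCB1 and LHCB2 out, which make up much of photosystem II, turned the difference to -0.08 without overlap. The log2 ratio of antenna to core was 0.14, 0.16 and 0.15 in wild type and -0.08, -0.10 and 0.12 in pub2pub4. Those groups did not overlap, with a difference of -0.17 in which pub2pub4 1 and 2 carried most. With LHCB1 and LHCB2 left out it was -0.08 and the groups overlapped. As a mean of log2 levels, which weighs each gene equally, it was -0.18 and the groups overlapped too, with pub2pub4 3 within the wild-type range. Within photosystem II, antenna to core was 0.77, 0.80 and 0.77 against 0.48, 0.43 and 0.70 (-0.25, no overlap). Within photosystem I it was -0.79, -0.81 and -0.78 against -0.91, -0.89 and -0.74 (-0.06, overlap). These ratios were described and not tested.

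**Figure D3:**
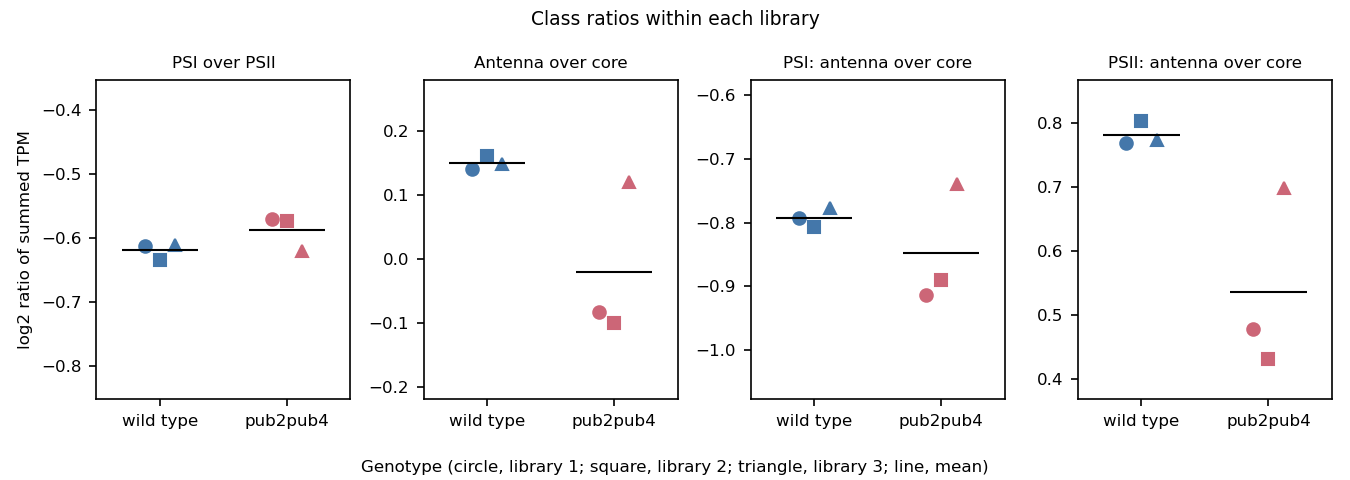
Log2 ratios of summed TPM in each library, photosystem I over II, antenna over core, and antenna over core within each photosystem. Symbols are libraries (circle 1, square 2, triangle 3), blue wild type and red pub2pub4, and lines are group means. The antenna to core ratios of pub2pub4 1 and 2 (-0.08 and -0.10) lie below wild type (0.14 to 0.16), and that of pub2pub4 3 (0.12) lies near it.

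Where a subunit is encoded by several genes, the share of each can shift without the sum. Of the summed LHCB4 level per length, LHCB4.1 made up 69.7% ± 0.384 in wild type and 75.4% ± 2.68 in pub2pub4 (SD, n = 3). The share of LHCB4.2 was 28.7%, 29.0% and 29.7% in wild type and 20.8%, 22.1% and 26.1% in pub2pub4. LHCB4.3 made up 1.17% ± 0.105 and 1.59% ± 0.298. All 3 shares were without overlap, also in pub2pub4 3. Shares within a family add up to the whole, so they are not separate observations. The level of LHCB4.1 itself overlapped between the groups. Within LHCB1, the share of LHCB1.3 was 44.2% ± 0.458 in wild type and 49.8% ± 2.21 in pub2pub4, and those of LHCB1.1 (3.62% and 2.53%) and LHCB1.5 (35.2% and 33.2%) were lower in the mutant without overlap. The share of LHCB1.3 was higher in the mutant although its fitted log2 fold change was below 0 (-0.20 ± 0.09). The shares of LHCB1.2 and LHCB1.4 overlapped. PSAH1 made up 47.4% ± 0.772 of the PSAH level in wild type and 51.1% ± 1.65 in pub2pub4, without overlap. The shares within PSAD, PSAE, PSBO, PSBQ and LHCB2 overlapped. The LHCB1 shares depend on how shared reads were split, while LHCB4.1 and LHCB4.2 were 81.1% identical in coding sequence.

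**Figure D4:**
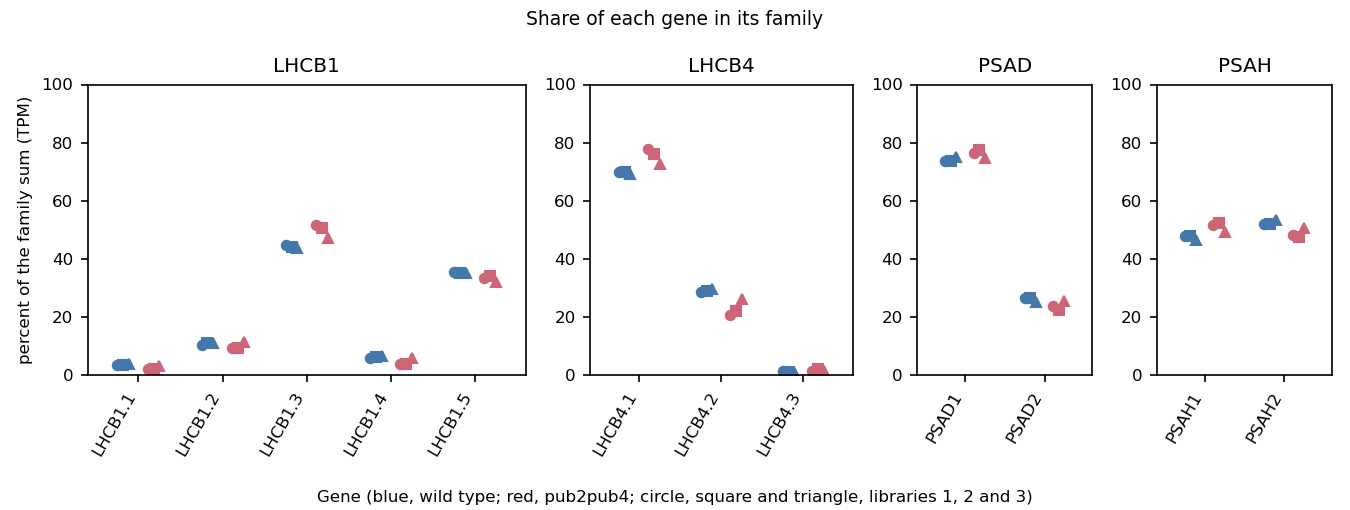
Share of each gene in the summed TPM of its family (LHCB1, LHCB4, PSAD, PSAH) in each library, in percent, with wild type in blue and pub2pub4 in red. For LHCB4 the 3 mutant libraries lie at 20.8% to 26.1% for LHCB4.2, below the wild-type libraries at 28.7% to 29.7%.

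Other genes of the photosynthetic apparatus, chosen as lists with earlier results known, were read beside the 42. Of 13 nuclear genes for electron transfer and ATP synthase, none passed the edgeR or DESeq2 test, none had an unadjusted p under 0.05 and the median was 0.02. LFNR2, a ferredoxin-NADP reductase, was at -0.12 (adjusted p = 0.357). Of 16 tested chlorophyll synthesis genes, none was called by edgeR and the median was -0.10. By unadjusted p 4 were lower and 1 higher, against 9.41% and 10.3% of all genes. DESeq2 called 2 lower (PORB and CHLP), against 3.72% of all genes. PORB, a light-dependent protochlorophyllide reductase, was at 706, 739 and 679 CPM against 493, 509 and 623 CPM (-0.39 ± 0.10, adjusted p = 0.0661). Its mutant libraries lay lower without overlap, and without pub2pub4 3 it was called lower (adjusted p = 0.00851), as were CHLP, CRD1 and CAO of the same list. In that fit 2.36% of all genes were called lower. None of 14 genes for import, assembly and phosphorylation of antenna proteins was called by edgeR or DESeq2. By unadjusted p 2 were higher, against 10.3% of all genes. That count is near the share and is not a result about the list. The thylakoid kinase STN8 had the smallest p (0.22, adjusted p = 0.108).

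Of 14 transcription and plastid-signalling regulators, PIF4, a phytochrome-interacting growth factor, was the only gene called by edgeR. Over all genes tested 1.97% were called lower. PIF4 was at 62.5, 68.4 and 64.4 CPM in wild type and fell to 49.8, 54.0 and 52.9 CPM in pub2pub4 (-0.32 ± 0.07, adjusted p = 0.0373). GLK2, which activates antenna genes, was at -0.33 (adjusted p = 0.0701), and PIF3 at 0.68 ± 0.18 (adjusted p = 0.0818). Neither passed the edgeR test, and DESeq2 called GLK2 lower and PIF3 higher. GLK1, more abundant than GLK2, went the other way and was not called (0.13 ± 0.06, adjusted p = 0.300). GLK1 was at 202, 203 and 202 CPM in wild type and at 219, 236 and 210 CPM in pub2pub4. Of 8 tested light-harvesting-like stress genes, edgeR called only ELIP1, an early light-induced chlorophyll-binding protein. Over all genes tested 2.49% were called higher. ELIP1 rose from 0.626, 0.541 and 0.527 CPM to 1.34, 1.28 and 1.57 CPM (1.296 ± 0.26, adjusted p = 0.0358), a very low level, and without pub2pub4 3 it was at 1.2 with an adjusted p of 0.0631. For ELIP1, limma-voom made the same call and DESeq2 did not.

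The chloroplast-encoded photosystem genes had low counts in these messenger RNA libraries. Of 20 such genes 6 passed the filter and 5 were at 0 in all libraries. Of the 6, edgeR called 4 lower and DESeq2 called all 6, against 1.97% and 3.72% of all genes tested. All 6 lay lower without overlap, against 12.7% of all genes tested, with a median log2 fold change of -1.42. psaA, a photosystem I reaction-centre gene, was at 21.6, 18.6 and 10.3 CPM in wild type and 3.53, 3.26 and 3.92 CPM in pub2pub4 (-2.23 ± 0.29, adjusted p = 0.0159). psaB, its partner, was at 26.1, 26.0 and 15.3 CPM against 4.87, 5.53 and 5.49 CPM (-2.08 ± 0.22, adjusted p = 0.00933). In both, all 3 mutant libraries lay below all wild-type libraries. For psaA pub2pub4 3 was the nearest of them to wild type, and for psaB it was not. psbC (-1.29 ± 0.20, adjusted p = 0.0193) and psbD (-1.56 ± 0.24, adjusted p = 0.0178), of photosystem II, fell as well, and all 4 were called without pub2pub4 3. All organelle genes together took 0.242% to 0.416% of counts in wild type and 0.0898% to 0.131% in pub2pub4. The part of library preparation in that difference was not tested.

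**Figure D5:**
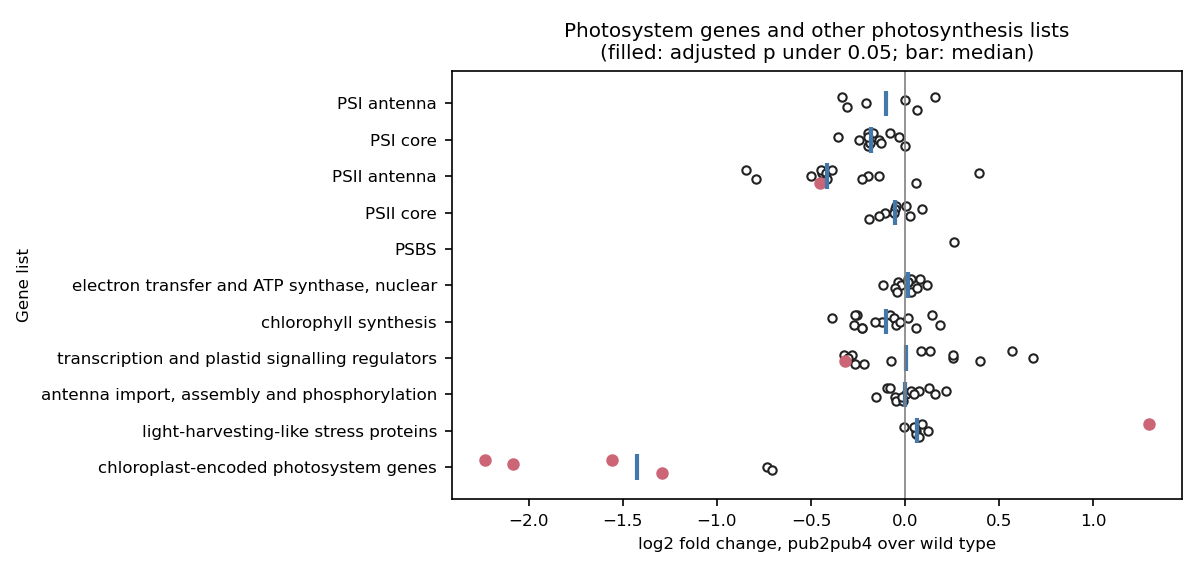
Fitted log2 fold changes, pub2pub4 minus wild type, of each of the 42 genes by class and of each tested gene of the other lists, 1 point a gene, filled where adjusted p was under 0.05, with bars at list medians. The chloroplast-encoded genes lie lowest, with a median of -1.42, and the electron transfer genes lie around 0.02.

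The 200 bases upstream of the annotated start are shown for the gene called lower (LHCB1.5), for an antenna gene of each photosystem that lay lower without overlap (LHCA1, LHCB4.2), for a paralog whose groups overlapped (LHCB4.1) and for PSAD2. They were read from the TAIR10.1 genome, 5′ to 3′ on the gene's strand, at chr2:14523569-14523768 (minus), chr3:20341177-20341376 (minus), chr3:2717357-2717556 (plus), chr5:208666-208865 (plus) and chr1:754263-754462 (minus). Capitals mark matches to CACGTG (the G-box), GATAAG (the I-box) or CCAATC, on either strand.
LHCB1.5: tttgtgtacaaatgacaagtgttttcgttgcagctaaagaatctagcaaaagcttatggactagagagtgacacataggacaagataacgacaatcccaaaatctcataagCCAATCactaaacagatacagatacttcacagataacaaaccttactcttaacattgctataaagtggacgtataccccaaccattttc
LHCA1: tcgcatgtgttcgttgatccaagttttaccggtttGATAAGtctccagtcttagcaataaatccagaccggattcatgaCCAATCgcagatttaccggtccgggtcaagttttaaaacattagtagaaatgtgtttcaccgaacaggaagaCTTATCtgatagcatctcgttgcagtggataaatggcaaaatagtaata
LHCB4.2: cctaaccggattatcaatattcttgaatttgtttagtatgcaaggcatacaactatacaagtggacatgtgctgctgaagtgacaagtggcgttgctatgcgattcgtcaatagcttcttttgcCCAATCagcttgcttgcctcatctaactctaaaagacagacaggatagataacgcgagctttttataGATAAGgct
LHCB4.1: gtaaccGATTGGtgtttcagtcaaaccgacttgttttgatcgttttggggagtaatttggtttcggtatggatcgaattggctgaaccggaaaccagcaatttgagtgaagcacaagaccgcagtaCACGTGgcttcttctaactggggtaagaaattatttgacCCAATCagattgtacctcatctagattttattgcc
PSAD2: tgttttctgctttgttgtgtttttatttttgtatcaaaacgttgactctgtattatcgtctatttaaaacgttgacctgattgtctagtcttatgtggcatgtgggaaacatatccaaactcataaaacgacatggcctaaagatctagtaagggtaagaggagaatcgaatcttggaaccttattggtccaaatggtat
The table's annotation release is not stated, and 44.5% of 21737 genes with a single transcript had the same length in the table and in RefSeq, so starts may differ from those behind the counts. None of these motifs contains another. CCAATC was in the window of 10 of 42 members (23.8%) against 8.43% of 27443 protein-coding genes: 3 of 6 photosystem I antenna genes, 7 of 14 photosystem II antenna genes and no core gene or PSBS. The G-box was in 8 members (19.0%, all genes 5.64%) and the I-box in 8 (19.0%, all genes 9.97%). The evening element AAAATATCT was in none of the members and 1.92% of all genes. Antenna genes with CCAATC had a median log2 fold change of -0.36 and those without it -0.18, with 10 genes each. The ranges overlapped, at -0.50 to 0.06 with the motif and -0.84 to 0.39 without it. LHCB1.1 and LHCB1.4, which had the lowest fitted values of the set, lack the motif. LHCB4.1, whose groups overlapped, holds the motif as LHCB4.2 does. A match is a description and not a site.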

How the data were processed

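The authors deposited expected counts, estimates of the reads of a gene, for 33602 genes in 6 leaf libraries, with each gene's length. The submitters' processing notes list TAIR10, RSEM 2.1.30 and TopHat2 2.1.0 without their roles. No source used here gives the strand setting, annotation release or filters. Of the deposited values 95.1% were whole (tolerance 1e-09). Columns were matched to samples by their names.

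Rounded expected counts were fitted with edgeR 4.0.16 (R 4.3.3), using TMM scaling, a filterByExpr filter (group-wise, minimum count 10, total 15), a robust quasi-likelihood fit, and Benjamini-Hochberg adjustment over 19019 genes, two-sided, threshold 0.05. SE is the size of the log2 fold change over the root of F. CPM is TMM-scaled, and TPM was recomputed from counts and deposited lengths. The fit was also run on simulated counts, in which libraries of a group differed by random spread alone. That run cannot tell how the fit handles a library that stands apart, as pub2pub4 3 does. DESeq2 1.42.0, limma-voom 3.58.1 and other settings were alternatives. Values in every library are given for the 10 members with the smallest p, the most abundant member of each class and paralogs of these. From the other lists, called genes and up to 3 with the smallest p are named. LHCA4, LHCB2.1, CRD1, CAO and GLK1 were named after their values were seen. The members and lists were chosen with earlier results of these data known. Positions, upstream windows and identities come from RefSeq's TAIR10.1 annotation. Replicate libraries differed by more than counting noise, with no sign of a duplicated library.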

Additional observations from a re-analysis of the deposited data

How the results depend on the processing

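Leave-one-out fits moved the count of members called lower from 0 to 15 and of members called higher from 0 to 1, and their median from -0.23 to -0.12. Over all genes, 848 were called with all libraries and 86 to 1210 in the leave-one-out fits: leaving out a wild-type library gave 132 (number 1), 86 (number 2) or 659 (number 3), and leaving out a mutant library gave 540, 91 or 1210 in the same order. DESeq2 called 1460 genes and 5 members lower, and limma-voom called 0 members. No filter, a stricter filter, library totals and median-of-ratios factors each called 2 members lower, LHCB1.5 and PSAD2. Same-numbered libraries correlated at 0.134, 0.058 and 0.156, each the highest for its number. The labels do not state that the numbers pair libraries, so the main fit had no block. Whether same-numbered libraries share a batch was not tested. With the replicate block 1066 genes were called, 1 member among them, with a median of -0.18 for the members. The photosystem I to II difference was -0.0811 with LHCB1 and LHCB2 left out, 0.0815 as a mean of log2 levels and 0.02 to 0.05 leaving out a library. The antenna to core difference was -0.0827 with LHCB1 and LHCB2 left out and -0.24 to -0.13 leaving out a library. LHCA2, at 0.00, changed sign: -0.0018 with the replicate block, -0.0044 in DESeq2 and with median-of-ratios factors, -0.0017 in limma-voom, -0.016 with library totals, -0.00033 with no filter, -0.0037 with the stricter filter, -0.0029 with LHCB1 and LHCB2 summed, and -0.057 to 0.059 leaving out a library. PSBR ran from -0.092 to 0.023 leaving out a library. Causes were not tested.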
